A study of Arabidopsis thaliana with 24 samples.

Results

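The genes described here are the UDP-glycosyltransferases (UGT genes) of Arabidopsis thaliana, measured in roots. They are the genes whose symbol is UGT followed by a digit and that have a probe set matching no other gene. They number 47 of 13264 genes named on the array in the tables used here, and each has 1 probe set. The reference lists 58 UGT symbols, of which 11 have no probe set of their own here, and 3 further probe sets match a UGT gene together with another gene and were left aside. Any UDP-glycosyltransferase listed under another symbol is in neither the 47 nor the 58, so these numbers do not give the coverage of the family. The 47 fall into 11 families, the largest being UGT71 with 9 members, UGT76 with 8 and UGT73 with 7. Along the chromosomes, 30 of them lie in 13 groups of neighbours no more than 3 places apart in gene order.

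Roots came from the double mutant nlp6nlp7, the mutants nlp7 and nlp6, and the reference line Col-0. Seedlings of every genotype were kept in 12.5 mM ammonium succinate for 9 days, and roots were harvested 35 min after 25 mM KNO3 was given or at 0 min, before it. The 8 combinations hold 3 biological replicates each, with about 200 pooled seedlings per replicate, on 24 Affymetrix ATH1 arrays in all. No group received potassium without nitrate, so nitrate, potassium, handling and elapsed time cannot be told apart in a response. The labels used here do not name the mutant alleles, and NLP6 and NLP7, transcription factors that act in nitrate signalling and give the mutants their names, have no named probe set with which the genotypes could be checked.

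UDP-glycosyltransferases move a sugar from a nucleotide sugar onto small molecules. In plants the acceptors include hormones, phenylpropanoids, flavonoids and defence compounds, and the sugar usually makes the acceptor more soluble, changes its activity or readies it for storage in the vacuole. Monolignols, the building blocks of lignin, are stored as glucosides in this way, and cytokinin, a hormone whose synthesis is known to respond to nitrate, is inactivated by it.

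Array values are intensities on a linear scale, set to a common level by the submitters, and a level is compared only within a probe set. Changes and differences are on the log2 scale of intensity plus 26, a constant that shrinks the changes of dim probe sets, and ± gives the standard error (SE) of a difference or the standard deviation (SD) of 3 arrays. A gene is said to have risen, fallen, or been higher or lower where the limma p-value, adjusted by the Benjamini-Hochberg method over all 22714 probe sets, was under 0.05. Of the 47 genes, 11 had a mean of 26 or less in every group, near the floor of the arrays, and 21 exceeded 196, the highest array median, in at least 1 group. The dim genes were UGT71B6, UGT73C1, UGT73C2, UGT76E1, UGT76E11, UGT76E12, UGT78D3, UGT84A1, UGT84B1, UGT84B2 and UGT85A5. No gene was removed for low values. UGT71C1, UGT72E2, UGT74B1 and UGT76B1 had a mean above 1000 in every group.

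Correlations between replicates across probe sets were 0.979 to 0.992, and array medians lay between 163 and 196. Replicate 1 of nlp7 stood apart from the other arrays at both times on the component with 8.9% of the variance, and results that rest on it are given with and without it. Of the 22714 probe sets, 8721 match no gene in the tables used here. A listed gene is called measured where a probe set names it alone. The other listed genes may still be on the arrays under probe sets without a name here. Of 8 root marker genes listed, the 2 measured, EXPA7 and EXPA18, which act in root hair cell walls, had intensities of 361 to 649 and 369 to 1007. Of 7 shoot markers, the 3 measured had 201 to 400 (RCA), 54 to 242 (LHCB4.1) and 1 to 71 (PRK), and none was called against Col-0 in any mutant or in any nitrate response. In whole roots, fewer cells of a type and less RNA per cell cannot be told apart.

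**Figure D1:**
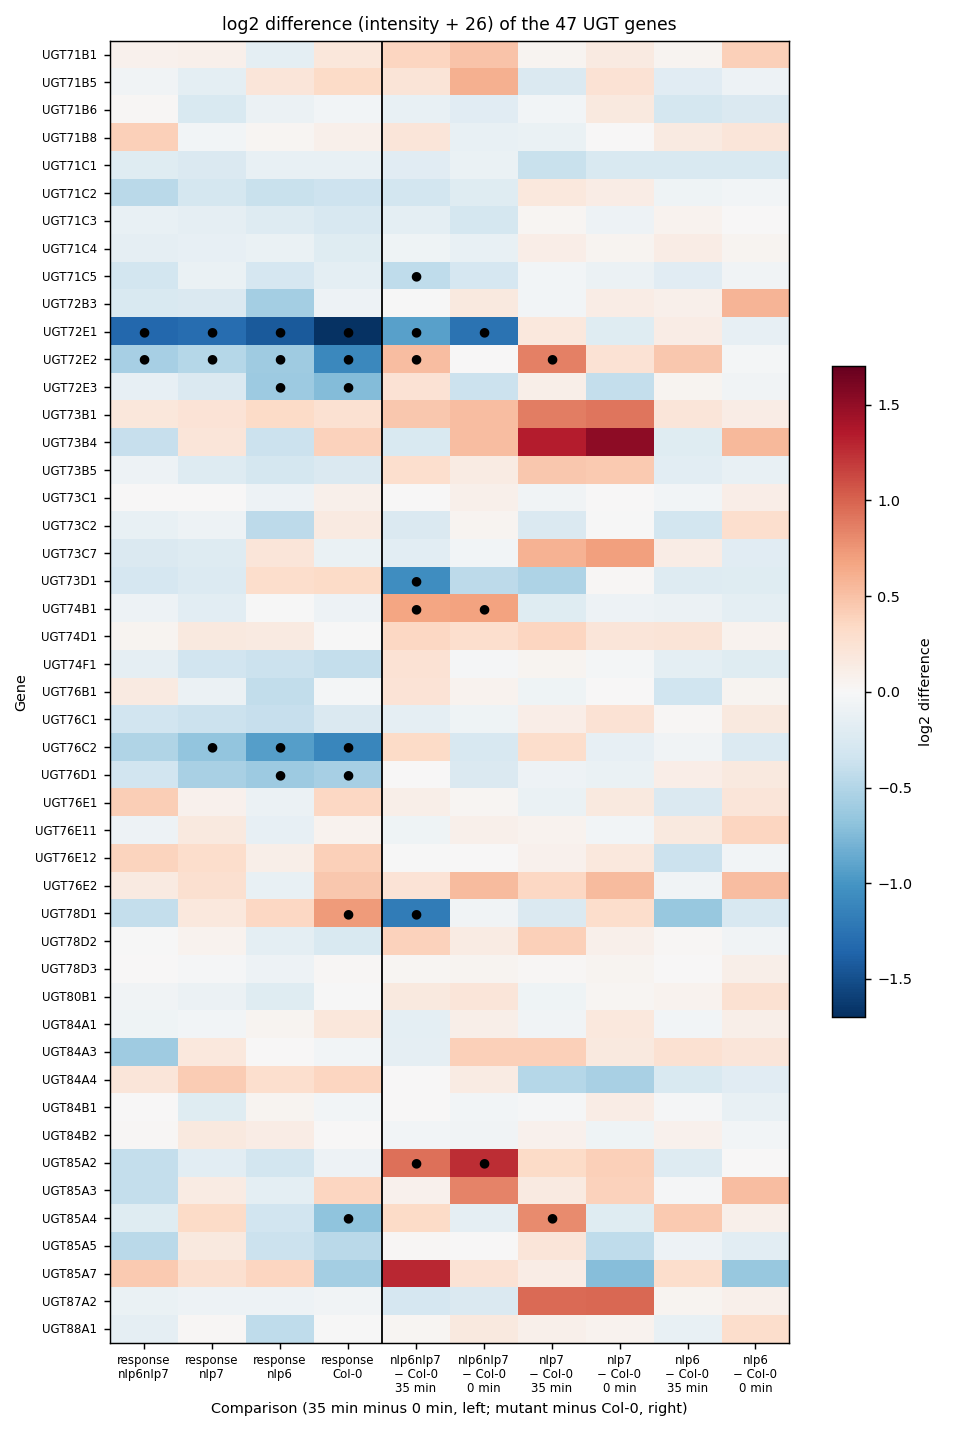
Difference on the log2 scale for each of the 47 UGT genes in the nitrate responses (35 min minus 0 min) and in each mutant minus Col-0 at each time, by colour; black dots mark a limma adjusted p under 0.05. UGT72E1 is lower after nitrate in all 4 genotypes. The 5 genes between AT1G20910 and AT1G27530, a run drawn on nlp6nlp7 values of these arrays, are above 0 in nlp6nlp7 at both times. Of these, only UGT85A2 and UGT74B1 are called against Col-0, and UGT85A5 is close to 0.

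In Col-0 roots after nitrate, the 3 UGT72E genes and UGT76C2 fell under every alternative tried, UGT76D1 and UGT85A4 fell with less certainty, and 1 gene, UGT78D1, rose. The 7 genes called were 6 lower and 1 higher, which is 14.89% of the 47, against 10.2% of all probe sets in the same comparison (5.5% lower, 4.65% higher). After quantile normalization 4 were lower and 0 higher. Of the root markers, EXPA18 fell (-0.52, limma adjusted p = 0.048) and EXPA7 was not called (0.03). The part of root hair cells in these results was not tested. The median response of the 47 was -0.04, the same as the median of all probe sets. No gene other than these 7 passed the threshold. An unadjusted limma p under 0.05 was found for 9 of the 47 and for 4529 of 22714 probe sets.

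UGT72E1 encodes an enzyme that glucosylates the aldehydes of the monolignol pathway. Its 3 Col-0 arrays read 714, 504 and 609 at 35 min, against 1968, 1706 and 2350 at 0 min. The times did not overlap, and the fall was -1.68 ± 0.16 (n = 3 per time, limma adjusted p = 2.7e-07), a level 0.312 times that before nitrate. UGT72E2 is the main glucosyltransferase for coniferyl and sinapyl alcohol in roots. Its Col-0 arrays read 1551, 1394 and 1365 at 35 min, against 3011, 3229 and 3047 at 0 min. Here too all 35 min arrays lay below all 0 min arrays, and the change was -1.1 ± 0.14 (limma adjusted p = 1.3e-05). UGT72E3, the closest relative, which acts on the same alcohols, read 248, 288 and 268 at 35 min in Col-0, against 451, 470 and 472 at 0 min. The groups were separate and the change was -0.74 ± 0.14 (limma adjusted p = 0.00091). Of 10 genes listed for monolignol and sinapate synthesis, only HCT has a named probe set of its own here. HCT builds the shikimate esters of that pathway and fell by 0.39 in Col-0 (limma adjusted p = 0.021).

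Among hormone-linked genes, UGT76C2, a cytokinin N-glucosyltransferase, fell and its neighbour UGT76C1, with the same reported activity, was not called. UGT76C2 read 258, 260 and 288 at 35 min in Col-0, against 545, 603 and 685 at 0 min. These groups did not overlap, and the change was -1.11 ± 0.16 (limma adjusted p = 4.9e-05). UGT76C1 had a change of -0.24 (limma adjusted p = 0.47), and UGT73C1, a cytokinin O-glucosyltransferase, was near the floor in every group. Of 24 listed genes of cytokinin metabolism and response, 2 were measured, and neither was called in any nitrate response. Their mean intensities were low, at 42.7 and 19.3, so small changes may have gone unseen.

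Auxin- and abscisic acid-linked UGT genes were not called in Col-0. UGT74D1, which glucosylates auxin, averaged 357 at 35 min and 357 at 0 min (SD 61.5 and 17.2, n = 3 each). UGT71C5, which forms the glucose ester of abscisic acid, averaged 660 at 35 min and 738 at 0 min (SD 70.1 and 54.2). Of 11 listed genes for other routes of auxin conjugation and oxidation 6 were measured, and GH3.17 and GH3.5, which join amino acids to auxin, fell in all 4 genotypes. GH3.17 fell by 0.91 in nlp6nlp7, 0.97 in nlp7, 1.5 in nlp6 and 1.67 in Col-0. GH3.5 fell by 0.5 in nlp6nlp7, 0.6 in nlp7, 0.91 in nlp6 and 0.92 in Col-0. Its call in nlp6nlp7 was close to the threshold (limma adjusted p = 0.049).

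UGT76D1, which glucosylates the dihydroxybenzoic acids made from salicylic acid, read 135, 137 and 171 at 35 min in Col-0, against 205, 232 and 257 at 0 min. The groups were apart, and the fall was -0.57 ± 0.18 (limma adjusted p = 0.043). This call was lost without any one of 5 of the 6 Col-0 arrays, with changes of -0.64 to -0.50 and adjusted p of 0.051 to 0.16, and was kept without replicate 3 at 35 min. It was also lost with 3 in place of 26, with either other scaling of the arrays and with a replicate block (adjusted p = 0.052 to 0.065). The other members linked to salicylic acid and defence signals, UGT74F1 and UGT76B1, were not called. Neither the 8 listed genes of salicylic acid turnover nor the 17 of glucosinolate synthesis have a named probe set here.

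UGT78D1, the flavonol 3-O-rhamnosyltransferase, was the gene that rose in Col-0. It read 150, 223 and 142 at 35 min, against 84, 88 and 103 at 0 min. All 35 min arrays were above all 0 min arrays, and the change was 0.73 ± 0.21 (limma adjusted p = 0.028). UGT78D2, the flavonoid 3-O-glucosyltransferase, averaged 290 at 35 min and 352 at 0 min in Col-0 (SD 41.2 and 43.6, n = 3 each) and was not called. Without Col-0 replicates 1 or 2 at 0 min or replicate 2 at 35 min the UGT78D1 call was lost, with changes of 0.55 to 0.71 (limma adjusted p = 0.086 to 0.18), as it was with 3 in place of 26 or after quantile normalization (adjusted p = 0.053 to 0.056). Of 17 listed flavonoid genes 3 were measured, and none was called in any comparison. Their mean intensities of 60.0, 24.7 and 7.83 were below every array median, so small changes may have gone unseen.

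UGT85A4, whose acceptor is left unnamed here, read 20, 47 and 31 at 35 min in Col-0, against 81, 58 and 62 at 0 min. The groups did not overlap, and the fall was -0.68 ± 0.18 (limma adjusted p = 0.018). With 3 or 103 in place of 26 it was -1.03 or -0.33. Leaving out Col-0 replicate 1 at 0 min, or replicate 1 or 3 at 35 min, lost the call (changes of -0.67 to -0.52, limma adjusted p = 0.054 to 0.12), as did quantile normalization or a fit on only the arrays compared (adjusted p = 0.055 to 0.079).

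**Figure D2:**
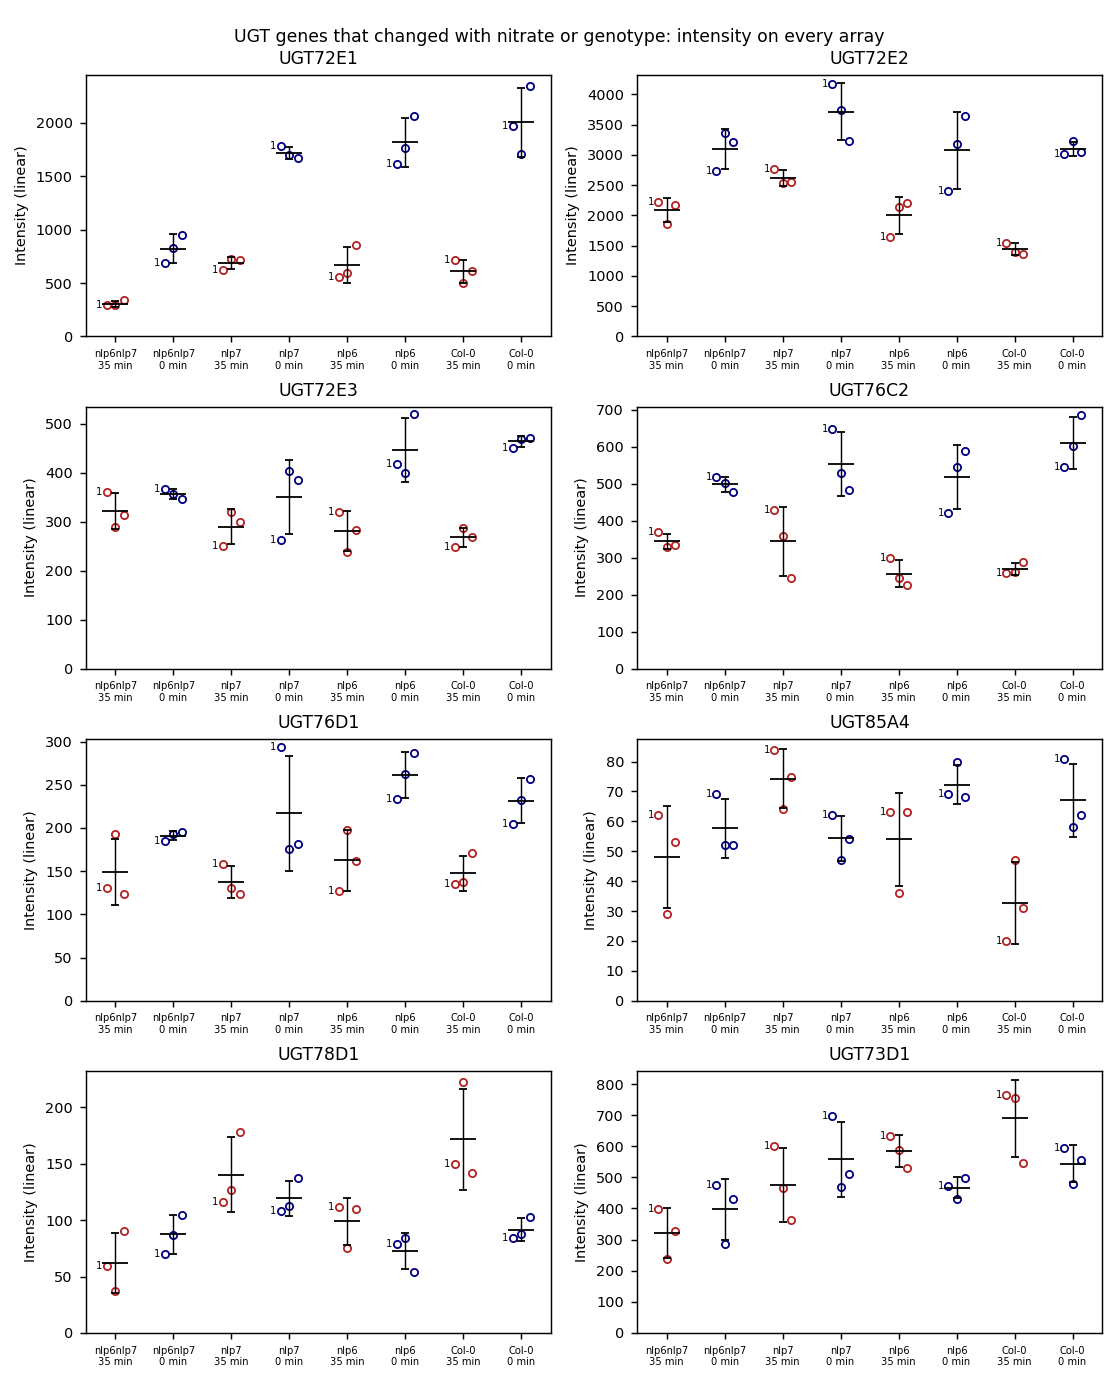
Linear intensity on every array for UGT genes outside the run from AT1G20910 to AT1G27530 that were called in a nitrate response or against Col-0 (all but UGT71C5), by genotype and time (35 min red, left of 0 min blue), with mean ± SD bars (n = 3) and a small 1 at replicate 1. In UGT72E1 the nlp6nlp7 arrays lie below those of the other genotypes at both times, at 290 to 341 after nitrate.

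The mutants kept the fall of UGT72E1, and in them fewer of the other genes passed. In nlp6, 5 UGT genes were called, all lower (10.64% of the 47, against 10.3% of all probe sets, 6.15% lower). In nlp7 there were 3, all lower (6.383% against 5.12%, 2.61% lower), and in nlp6nlp7 2, both lower (4.255% against 5.41%, 3.0% lower). Median responses of the 47 were -0.12 in nlp6nlp7, -0.08 in nlp7 and -0.14 in nlp6, with -0.05, -0.02 and -0.08 over all probe sets.

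UGT72E1 read 290, 290 and 341 at 35 min in nlp6nlp7, against 684, 829 and 952 at 0 min. In nlp7 it read 622, 729 and 713 at 35 min, against 1782, 1696 and 1674 at 0 min. In nlp6 it read 555, 591 and 858 at 35 min, against 1616, 1769 and 2068 at 0 min. In each of these mutants the times did not overlap. Its changes were -1.34 in nlp6nlp7, -1.29 in nlp7, -1.43 in nlp6 and -1.68 in Col-0, all past the threshold with every alternative and every array left out.

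UGT72E2 fell by 0.56 in nlp6nlp7, 0.49 in nlp7, 0.60 in nlp6 and 1.1 in Col-0 (limma adjusted p = 0.019, 0.046, 0.0066 and 1.3e-05). The nlp6nlp7 call was lost without replicate 2 or 3 at 0 min or replicate 2 at 35 min (changes of -0.54 to -0.48, adjusted p = 0.078 to 0.11). In nlp7 it was lost without replicate 1 or 2 at 0 min, without any one of the 3 arrays at 35 min, or without replicate 1 at both times (-0.53 to -0.41, adjusted p = 0.07 to 0.24), and in nlp6 without replicate 3 at 0 min or replicate 1 at 35 min (-0.47, adjusted p = 0.054). Fitted on only the arrays compared, the adjusted p was 0.052 in nlp6nlp7 and 0.15 in nlp6. In nlp7 that fit and 4 other settings lost the call (-0.50 to -0.45, adjusted p = 0.059 to 0.16). UGT72E3 fell in nlp6 (-0.62, limma adjusted p = 0.0048, and 0.072 on only the arrays compared) and had changes of -0.14 in nlp6nlp7 and -0.24 in nlp7 that did not pass.

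UGT76C2 fell in nlp7 (-0.67, limma adjusted p = 0.014) and nlp6 (-0.94, adjusted p = 0.00033), and in nlp6nlp7 its change of -0.51 did not pass (adjusted p = 0.077). Without nlp7 replicate 1 at 0 min or replicate 3 at 35 min the nlp7 call was lost (-0.55 to -0.46, adjusted p = 0.09 to 0.12), and on only the arrays compared its adjusted p was 0.28. UGT76D1 fell in nlp6 (-0.62, limma adjusted p = 0.025), a call lost without replicate 2 or 3 at 0 min or replicate 1 or 3 at 35 min (-0.63 to -0.48, adjusted p = 0.057 to 0.15) or on only the arrays compared (0.091). UGT78D1, which rose in Col-0, had changes of -0.40 in nlp6nlp7, 0.18 in nlp7 and 0.35 in nlp6, none of which passed. HCT fell in all mutants too, by 0.41 in nlp6nlp7, 0.44 in nlp7 and 0.49 in nlp6.

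Tested directly, no difference in response between a mutant and Col-0 passed for any UGT gene. The limma counts at an unadjusted p under 0.05 were 4 of the 47 for nlp6nlp7, 3 for nlp7 and 2 for nlp6. Of 22714 probe sets, 1842, 1379 and 1141 had such a p in these comparisons. At the adjusted threshold, 0.528% of all probe sets passed for nlp6nlp7, 0.264% for nlp7 and 0.00881% for nlp6. The 3 comparisons use the same 6 Col-0 arrays. The nlp6nlp7 response of UGT78D1 lay 1.13 below that of Col-0 (95% interval -1.74 to -0.51, limma adjusted p = 0.13). It passed once, without nlp6nlp7 replicate 3 at 35 min, at -1.35 (adjusted p = 0.043), and over the alternatives the adjusted p was 0.043 to 0.38. For UGT85A4 the nlp7 response lay 1.0 above that of Col-0 (0.46 to 1.54, adjusted p = 0.18). The response of UGT72E2 lay above that of Col-0 by 0.53 in nlp6nlp7 (0.11 to 0.95, adjusted p = 0.43), 0.60 in nlp7 (0.18 to 1.02, adjusted p = 0.48) and 0.49 in nlp6 (0.07 to 0.91, adjusted p = 0.99). UGT72E1 had a difference of 0.34 in nlp6nlp7 (-0.14 to 0.82), an interval that includes 0.

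In nlp6nlp7 roots before nitrate, UGT72E1 was lower than in Col-0, and UGT85A2 and UGT74B1 were higher. The higher genes lie between AT1G20910 and AT1G27530, a run of genes drawn on nlp6nlp7 values of these arrays and described below. Outside that run 1 UGT gene was called. All 3 together are 6.383% of the 47, against 6.41% of all probe sets (3.92% higher, 2.5% lower). With each array centred on its median, 2 were higher and 2 lower. UGT72E1 read 684, 829 and 952 in nlp6nlp7 at 0 min, against 1968, 1706 and 2350 in Col-0. The genotypes did not overlap, and the difference was -1.26 ± 0.16 (limma adjusted p = 5e-05), 0.417 times the Col-0 level. The nlp7 and nlp6 arrays at 0 min lay between 1616 and 2068, all above those of nlp6nlp7, and UGT72E1 was not called in either against Col-0.

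After nitrate, 7 UGT genes differed between nlp6nlp7 and Col-0, 3 higher and 4 lower (14.89% of the 47, against 6.22% of all probe sets, 3.55% higher and 2.67% lower). UGT85A2 and UGT74B1, in the run drawn on nlp6nlp7 values, are among the 3 higher. Outside that run 5 were called, 1 higher and 4 lower. The median difference of the 47 was 0.01, with 0.03 over all probe sets. UGT72E1 was again lower, at -0.92 ± 0.16 (limma adjusted p = 0.001). UGT78D1 read 59, 37 and 90 in nlp6nlp7, against 150, 223 and 142 in Col-0. The genotypes did not overlap, and the difference was -1.19 ± 0.21 (limma adjusted p = 0.00095), or -0.74 with 103 in place of 26. Fitted on only the arrays compared, the adjusted p was 0.053. At 0 min UGT78D1 averaged 87.3 ± 17.5 in nlp6nlp7 and 91.7 ± 10.0 in Col-0 (SD, n = 3 each).

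UGT73D1, a member of the UGT73 family for which no acceptor is given here, read 397, 237 and 329 at 35 min in nlp6nlp7, against 766, 756 and 547 in Col-0. All nlp6nlp7 arrays were below all Col-0 arrays, and the difference was -1.06 ± 0.21 (limma adjusted p = 0.0026). UGT71C5 was lower by less, at -0.43 ± 0.12 (limma adjusted p = 0.029), with readings of 503, 447 and 498 in nlp6nlp7 against 714, 686 and 581 in Col-0. Those groups were separate, but the call was lost without Col-0 replicate 1 or 2, or without any nlp6nlp7 array (-0.46 to -0.37, adjusted p = 0.062 to 0.13) or on only the arrays compared (0.079).

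UGT72E2 was higher in nlp6nlp7 after nitrate. It read 2226, 1857 and 2178 in nlp6nlp7 at 35 min, against 1551, 1394 and 1365 in Col-0. There was no overlap, and the difference was 0.53 ± 0.14 (limma adjusted p = 0.028). Without Col-0 replicate 2 or 3, or nlp6nlp7 replicate 1 or 3, the call was lost (0.48 to 0.51, adjusted p = 0.095 to 0.12). The root hair gene EXPA18 was also higher in nlp6nlp7 at 35 min, by 0.78 (limma adjusted p = 0.0048), EXPA7 was not called (-0.08), and the part of root hair cells in these results was not tested.

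In nlp7 roots at 35 min 2 UGT genes were higher than in Col-0 and none lower (4.255% of the 47, against 1.25% of all probe sets, 0.374% higher). UGT72E2 read 2764, 2534 and 2551 in nlp7 roots, against 1551, 1394 and 1365 in those of Col-0. The genotypes were apart, and the difference was 0.85 ± 0.14 (limma adjusted p = 0.0032, and 0.051 on only the arrays compared). UGT85A4 read 84, 64 and 75 in nlp7 roots, against 20, 47 and 31 in those of Col-0. They did not overlap either, and the difference was 0.80 ± 0.18 (limma adjusted p = 0.034), or 0.39 with 103 in place of 26. Leaving out Col-0 replicate 1 or 3, any nlp7 array at 35 min, or nlp7 replicate 1 at both times ended that call (0.63 to 0.87, adjusted p = 0.071 to 0.18). So did either other scaling of the arrays, and a fit on only the arrays compared (0.72 to 0.80, adjusted p = 0.055 to 0.21).

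At 0 min no UGT gene passed in nlp7 against Col-0 (limma), with 0.185% of all probe sets passing. At an unadjusted p under 0.05 there were 7 of the 47, and 1936 of 22714 probe sets. In nlp6 none passed at 35 min or at 0 min, with 0.022% and 0.0881% of all probe sets passing. Unadjusted, these nlp6 comparisons had 3 and 4 of the 47, and 2018 and 2668 of 22714 probe sets. The largest nlp6 differences at 35 min were UGT78D1 at -0.65 (limma adjusted p = 0.33) and UGT72E2 at 0.46 (adjusted p = 0.31). All comparisons with Col-0 at one time use the same 3 Col-0 arrays.

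Averaged over both times, nlp6nlp7 was set against each of the other mutants, with the Col-0 arrays entering only the estimate of spread. Arrays of a genotype at both times were treated as independent, and pairing of replicates between times was not modelled. Against nlp6, 5 UGT genes were called (10.64% of the 47, against 14.7% of all probe sets, 9.04% higher and 5.68% lower): UGT85A2 (1.21), UGT74B1 (0.81) and UGT71B5 (0.55) were higher, and UGT72E1 (-1.08) and UGT73D1 (-0.54) lower. With either other scaling of the arrays 3 were higher and 6 lower. In the main fit 3 were called outside the run from AT1G20910 to AT1G27530, 1 higher and 2 lower. The run was drawn on nlp6nlp7 values of these arrays. Calls of its genes against nlp6 or nlp7 are therefore a description and no independent evidence. Against nlp7, 11 were called, 4 higher and 7 lower, with 10.4% of all probe sets called (5.89% higher, 4.53% lower). Outside the run 8 were called, 1 higher and 7 lower. Of the markers, EXPA18 was higher (0.57) and LHCB4.1 lower (-0.79) in that comparison. EXPA7 (-0.06), RCA (-0.25) and PRK (0.21) were not called in it. The part of the marked cell types was not tested. UGT72E1 was lower there as well (-1.08, limma adjusted p = 1.8e-06), as were UGT78D1 (-0.66, or -0.40 with 103 in place of 26) and UGT73D1 (-0.51). UGT84A4, a hydroxycinnamate glucosyltransferase, was higher at 0.58 (limma adjusted p = 0.0078), and at 0.38 without replicate 1 of nlp7 at both times. UGT85A2 (0.74), UGT74B1 (0.82) and UGT85A7 (1.07, or 0.56 with 103), all in the run, were the others higher. UGT71C2 (-0.41) and UGT71C5 (-0.28) were lower too. Calls of UGT73D1, UGT71C5 and UGT85A7 were lost without replicate 1 of nlp7 at 0 min, at 35 min or at both times, and without several other single arrays (adjusted p = 0.055 to 0.17). Array weights lost UGT73D1, a fit on only the arrays compared lost it and UGT71C5, and 3 in place of 26, quantile normalization or a replicate block lost UGT85A7 (adjusted p = 0.051 to 0.11). The UGT71C2 call was lost without any of 10 of the 12 arrays, those other than replicate 1 of nlp7 (adjusted p = 0.055 to 0.11), and with 3 in place of 26, a replicate block or only the arrays compared (0.052 to 0.06).

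Of the 47 genes, 30 were called in none of the 15 comparisons. The same share over all probe sets was not counted, so this number cannot be read as a trait of UGT genes. Among these 30, UGT76B1, which acts on isoleucic acid and salicylic acid, had group means between 2399 and 3556. Group means of UGT80B1, a sterol glucosyltransferase, spanned 201 to 262, and those of UGT78D2 spanned 290 to 397. All 11 dim genes are among the 30, and small changes in them were not detectable at these signals.

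**Figure D3:**
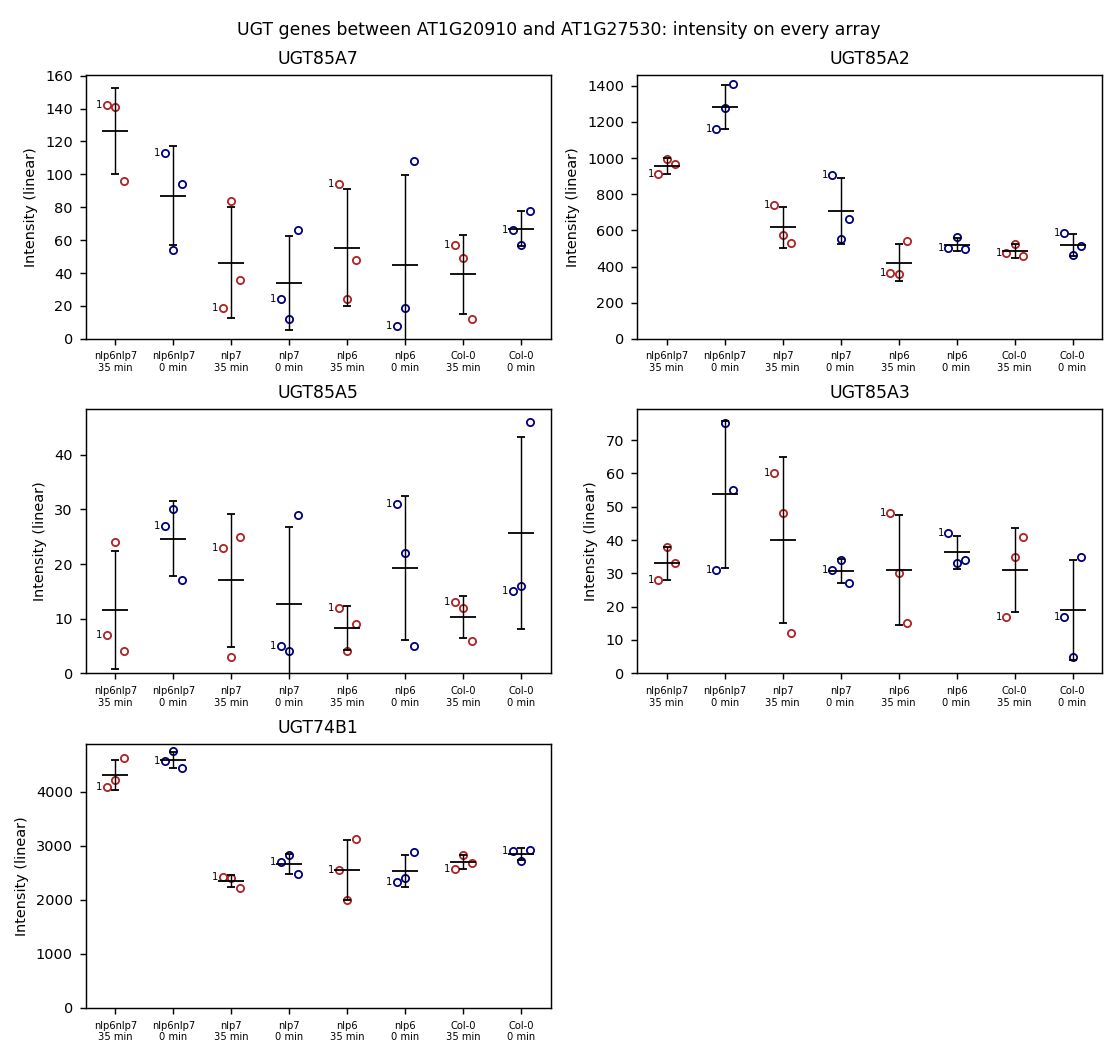
Linear intensity on every array for the 5 UGT genes between AT1G20910 and AT1G27530 on chromosome 1, by genotype and time (35 min red, left of 0 min blue), with mean ± SD bars (n = 3) and a small 1 at replicate 1. In UGT74B1 and UGT85A2 every nlp6nlp7 array lies above every array of the other genotypes.

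Of the 47 genes, 5 lie between AT1G20910 and AT1G27530, a run of neighbouring genes raised together in nlp6nlp7: UGT85A7, UGT85A2, UGT85A5, UGT85A3 and UGT74B1. The run was drawn on nlp6nlp7 values of these arrays, so the values of these genes in nlp6nlp7 are a description and are no independent evidence of it. The 4 UGT85A genes sit next to each other, and UGT74B1 stands apart from them.

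UGT74B1 encodes the S-glucosyltransferase that makes desulfoglucosinolates, a step in the synthesis of the glucosinolate defence compounds. It read 4096, 4224 and 4631 at 35 min and 4573, 4756 and 4451 at 0 min in nlp6nlp7, against 2580, 2831 and 2689 and 2898, 2723 and 2927 in Col-0. No arrays of these genotypes overlapped, and the differences were 0.67 ± 0.12 at 35 min and 0.68 ± 0.12 at 0 min, 1.59 and 1.61 times the Col-0 level. UGT85A2 read 910, 994 and 968 at 35 min and 1161, 1276 and 1408 at 0 min in nlp6nlp7, against 473, 527 and 456 and 586, 466 and 511 in Col-0. Its groups were separate too, with differences of 0.94 ± 0.17 at 35 min and 1.26 ± 0.17 at 0 min.

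The other UGT85A genes there did not pass against Col-0. UGT85A7 read 142, 141 and 96 at 35 min in nlp6nlp7, against 57, 49 and 12 in Col-0, and the difference of 1.28 ± 0.46 had a limma adjusted p of 0.12. These arrays did not overlap, whereas at 0 min the difference was 0.25. UGT85A3 read 28, 38 and 33 at 35 min and 31, 75 and 55 at 0 min in nlp6nlp7, against 17, 35 and 41 and 17, 5 and 35 in Col-0. These overlapped at both times, with differences of 0.07 and 0.84 (limma adjusted p = 0.091 at 0 min). UGT85A5, near the floor, read 7, 24 and 4 at 35 min and 27, 30 and 17 at 0 min in nlp6nlp7, against 13, 12 and 6 and 15, 16 and 46 in Col-0, with differences of 0.02 and 0.01.

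The median difference of the 5 from Col-0 was 0.67 at 35 min and 0.68 at 0 min, and all 5 were above 0 at each time. The 305 other named genes of the run had medians of 0.70 and 0.71, with 56.7% and 60.0% of them called higher and none lower. Among named genes of chromosome 1 outside the run, 2.07% and 2.61% were called higher, with medians of 0.04 and 0.05. The 42 UGT genes elsewhere had a median of 0.00 at both times. At the ends of the run, AT1G20910 had differences of 0.92 and 0.89 and AT1G27530 0.84 and 0.67, at 35 min and 0 min. Just outside, AT1G20890 had -0.01 and -0.28, and AT1G27550 -0.09 and 0.12. The ends were drawn on these same nlp6nlp7 values. The medians and shares inside and outside the run, and the step at its ends, are therefore also a description and no independent evidence.

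In the other mutants the 5 genes had median differences from Col-0 of 0.15 at 35 min and -0.09 at 0 min in nlp7, and of -0.08 and -0.17 in nlp6. None of the 5 was called there. Leaving the 5 aside, 1 UGT gene differed between nlp6nlp7 and Col-0 at 0 min and 5 at 35 min. Over all probe sets, those of the run included, 6.41% and 6.22% were called. The share over all probe sets outside the run was not counted, so these numbers cannot be read as a trait of UGT genes. None of the 5 genes of the run was called in any nitrate response.

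**Figure D4:**
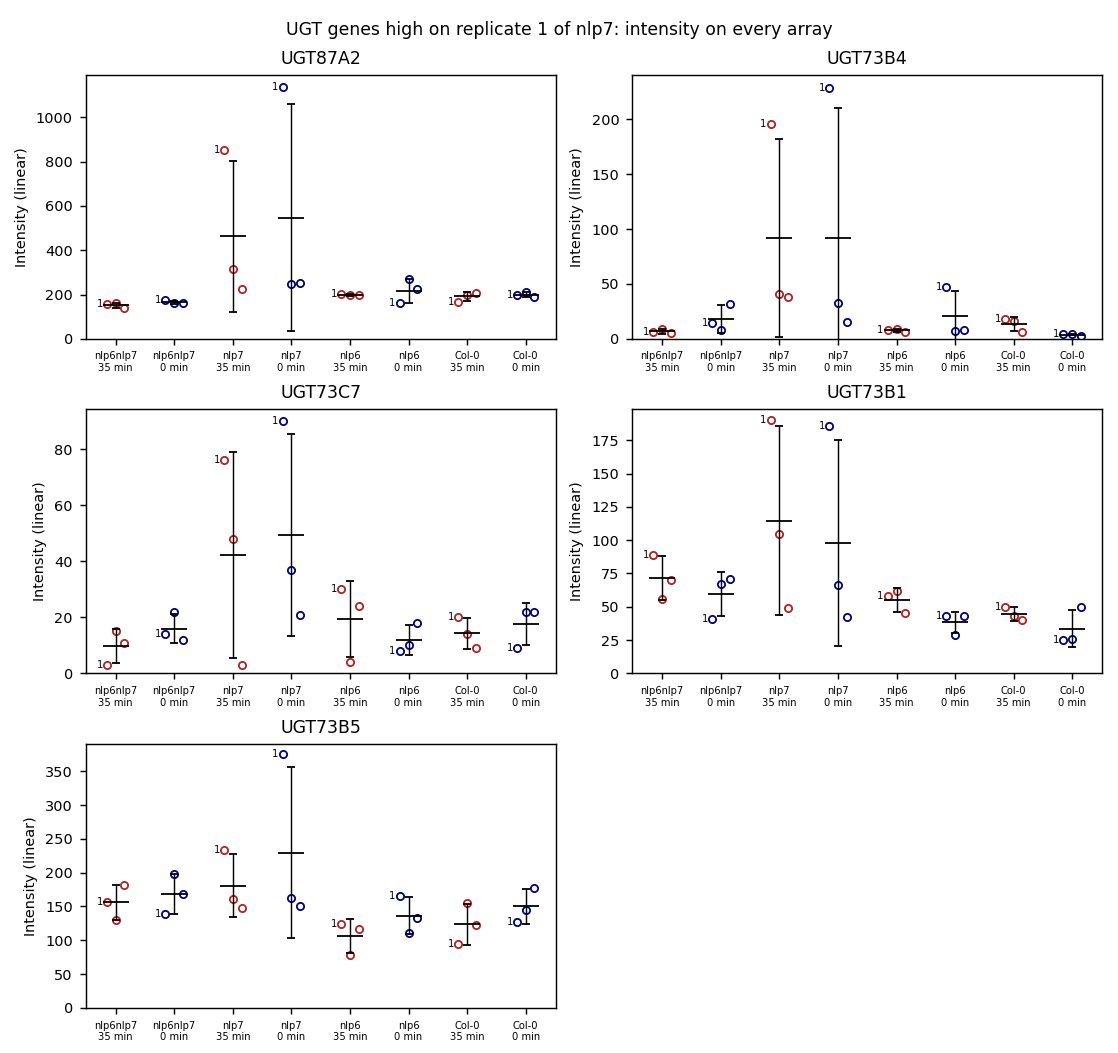
Linear intensity on every array for 5 UGT genes that read high on replicate 1 of nlp7, by genotype and time (35 min red, left of 0 min blue), with mean ± SD bars (n = 3) and a small 1 at replicate 1. Replicate 1 of nlp7 is the top array of its group in each panel, reaching 1138 in UGT87A2 at 0 min.

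Replicate 1 of nlp7 carried high readings of several UGT genes at both times. UGT87A2, known from work on flowering time, read 853, 314 and 223 at 35 min and 1138, 247 and 253 at 0 min in nlp7 roots. In Col-0 it read 168, 199 and 207 at 35 min and 199, 212 and 189 at 0 min. The first of each nlp7 trio is replicate 1, which lay far above the other arrays. UGT73B4, which can glucosylate breakdown products of the explosive TNT, read 196, 41 and 38 at 35 min and 228, 33 and 15 at 0 min in nlp7, with 18 or less in every Col-0 array. With UGT73C7 and UGT73B1 these make 4 genes in which replicate 1 lay at least 1 on the log2 scale above the mean of the other nlp7 arrays at both times, and in 0 genes did it lie as far below. The same counts over all probe sets were not made, so these numbers cannot be read as a trait of UGT genes. UGT73C7 read 76, 48 and 3 at 35 min and 90, 37 and 21 at 0 min in nlp7, with 22 or less in every Col-0 array. UGT73B1 read 190, 105 and 49 at 35 min and 186, 66 and 42 at 0 min in nlp7, with 50 or less in Col-0.

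None of these genes was called in nlp7 against Col-0. UGT87A2 had nlp7 minus Col-0 differences of 0.96 at 35 min and 0.98 at 0 min, and of 0.43 and 0.29 without replicate 1. For UGT73B4 it was 1.34 and 1.52, and 0.75 and 0.73 without replicate 1. UGT73C7 had 0.59 and 0.70, and 0.21 and 0.33 without it, and UGT73B1 had 0.87 and 0.91, and 0.50 and 0.43 without it. UGT73B5, linked to pathogen responses and a neighbour of UGT73B4, had 0.46 and 0.44, and 0.29 and 0.06 without it. In the comparison of nlp6nlp7 with nlp7 over both times, UGT73B4 was lower (-1.29, limma adjusted p = 0.024) and so was UGT87A2 (-1.23, adjusted p = 0.0095). Without replicate 1 of nlp7 these were -0.60, no longer called, and -0.62, still called. On only the arrays compared both calls were lost (adjusted p = 0.11 and 0.081). The UGT73B4 difference was -2.2 with 3 in place of 26 and -0.63 with 103. The UGT73B4 call was also lost without nlp7 replicate 1 at 35 min or nlp6nlp7 replicate 2 at 0 min (adjusted p = 0.059 to 0.069).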

How the data were processed

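The deposited intensities, 1 per probe set, are whole numbers between 1 and 36178. By their values the authors had scaled every array alike, since the trimmed mean (2% off each end) lay between 500.1 and 500.5. The summarising software is not stated in the labels or headers. The number of arrays limits the precision.

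From the deposited intensities, log2(intensity + 26) was taken here, 26 being their 20th percentile. Of 22776 probe sets, 62 controls were left out. Names came from the platform's probe table and RefSeq's gene table, used for symbols and gene order only, and coordinates are not given because the array table names no assembly. One group-means model in limma 3.58.1 (R 4.3.3) covered 24 arrays, with two-sided contrasts adjusted by the Benjamini-Hochberg method. It was tested on simulated data.

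Any UGT gene could be named, with array values for those called in a response or against Col-0 and those of the run on chromosome 1, and genes of the pathway lists where called. Members and lists were chosen with earlier results of these data known. The alternatives were pseudocounts of 3 and 103, other scalings, filters on dim values, trended and robust variances, array weights, a replicate block, only the arrays compared, and each array left out. Tables and plots were made in Python 3.11.15.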

Additional observations from a re-analysis of the deposited data

How the results depend on the processing

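Of the recomputed counts and medians, 289 stayed close to the reported value and 35 moved. A count was taken as close when equal or within a ratio of 1.5, which includes counts of 0 that stayed 0. Only the medians of the chromosome 1 run could change direction, and none did. Of the recomputed single-gene calls, 755 were kept and 113 lost, with no change of sign. The cause of these moves was not tested, beyond the fewer arrays or genes of some fits. After quantile normalization the Col-0 response had 4 calls, nlp7 minus Col-0 at 35 min 1, and nlp6nlp7 minus nlp6 9. With arrays centred on their median the last 2 were also 1 and 9. With only the arrays compared, the nlp6 response had 2 calls, the nlp7 response 1, nlp7 minus Col-0 at 35 min 0 and nlp6nlp7 minus nlp7 6. With array weights, the nlp6nlp7 response had 4 and nlp6nlp7 minus Col-0 at 0 min 6. Without the dimmest 50% of probe sets, nlp7 minus Col-0 at 35 min had 1, as it had without nlp7 replicate 1 at both times.

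The 5 genes of the chromosome 1 run had a median difference at 0 min of 0.36 with 103 as pseudocount, 0.59 after centring and 0.97 without the dimmest 50% (2 genes left). At 35 min it was 0.94 without the dimmest 25% (3 left) and 0.81 without the dimmest 50% (2 left).

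Leaving out each array in turn gave 4 to 6 calls in the Col-0 response (4 without 0 min replicate 1) and 3 to 7 in nlp6 (3 without 0 min replicate 3 or 35 min replicate 1). It gave 1 to 3 in nlp7 (1 without 0 min replicate 1 or 35 min replicate 3) and 1 to 2 in nlp6nlp7 (1 without 0 min replicate 2 or 3, or 35 min replicate 2). For nlp7 minus Col-0 at 35 min it gave 1 to 2 (1 without Col-0 replicate 1 or 3, or any nlp7 array). The nlp6nlp7 response minus that of Col-0 had 0 to 1 (1 without 35 min replicate 3 of nlp6nlp7). For nlp6nlp7 minus nlp7 the range was 7 to 11 (7 without 35 min replicate 1 of nlp7 or replicate 2 of nlp6nlp7). The median of the run at 0 min was 0.60 to 0.71 (0.60 without Col-0 replicate 2).

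Replicate numbers were not taken to pair samples, since nothing in the labels says that they do. For arrays sharing a number, the median correlation of deviations from group means was 0.01 over 84 pairs (13 over 0.1). Between the 2 times of a genotype it was 0.10 over 12 pairs (up to 0.47, 6 over 0.1), against -0.06 over 24 pairs of different numbers (3 over 0.1). Pairing between the times of a genotype was not tested: the replicate block fits an effect per number that all genotypes share. With this replicate block the Col-0 response had 6 calls, nlp6 5, nlp7 2 and nlp6nlp7 2, and nlp6nlp7 minus Col-0 at 0 min had 4. It lost UGT76D1 in Col-0 (limma adjusted p = 0.058), UGT72E2 in nlp7 (0.059), and UGT85A7 (0.051) and UGT71C2 (0.058) in nlp6nlp7 minus nlp7. It ended no other call of a UGT gene. Calls of genes outside the UGT family were not followed over the alternatives. A planned setting with the dimmer probe set per gene was not run, since each gene has 1.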
